A study of Mus musculus with 4 samples.

Results

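The 32 genes described here make and control sterols and fatty acids. They were taken as a fixed list of gene symbols, and a gene was measured through the probes whose accession maps to its symbol, with the brightest probe standing for the gene. All 32 had a probe well above background on each of the 4 arrays, as did 16735 of the 17963 features that passed the filter on dim probes. These features include 13041 gene symbols. By role, the list holds 7 mevalonate enzymes, 11 enzymes of the route from squalene to cholesterol, 6 genes of sterol control and transport, and 8 fatty acid enzymes. It does not hold every enzyme of either pathway.

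The data were 4 one-colour microarrays of female mouse parthenogenetic embryonic stem cells (ESCs), 2 of haploid and 2 of diploid cells. Parthenogenetic lines derive from an egg activated without sperm, so all 4 samples carry only maternal chromosomes, and the groups differ in carrying 1 or 2 sets of them. The labels name a line 1 and a line 2 in each group, and the design text calls the experiments of a group independent. Strain, passage number and culture medium are not given in the sources used here. All 10 ESC markers looked at, Pou5f1, Sox2 and Esrrb among them, were well above background on all arrays.

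Cells build cholesterol from acetyl-CoA. The mevalonate enzymes make the isoprenoid farnesyl diphosphate, which also feeds protein prenylation, and the later enzymes join it into squalene, close the ring and trim it to cholesterol. When sterols in the endoplasmic reticulum run low, SCAP carries the SREBP transcription factors to the Golgi for cleavage, and SREBPs then switch on the pathway, while INSIG proteins hold SCAP back when sterols are plentiful. SREBP2 acts mainly on sterol genes and SREBP1 mainly on fatty acid genes, where acetyl-CoA from citrate is carboxylated, built into palmitate, then elongated and desaturated. Dividing cells draw on both pathways for new membrane.

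Of the 32 genes, 21 (65.6%) lay below 0 in the haploid minus diploid difference, beside 46.8% of all 17963 features tested, and their median was -0.16 beside 0.02 for all features (log2 scale). None was called: the smallest adjusted p of a member was 0.292 (limma, Benjamini-Hochberg over all features), and over all features 0.111% were called in either direction. At an unadjusted p under 0.05 there were 5 members (15.6%), each lower in haploid cells, namely Cyp51, Lss, Fdft1, Elovl6 and Fads1, beside 4.92% of all features with haploid lower. Both haploid arrays lay below both diploid arrays for 11 members (34.4%), beside 20.9% of all features, and above them for 4 members (12.5%), beside 26.0%. These shares describe a list that was proposed with earlier results of the same arrays known, and they are no test of it.

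**Figure D1:**
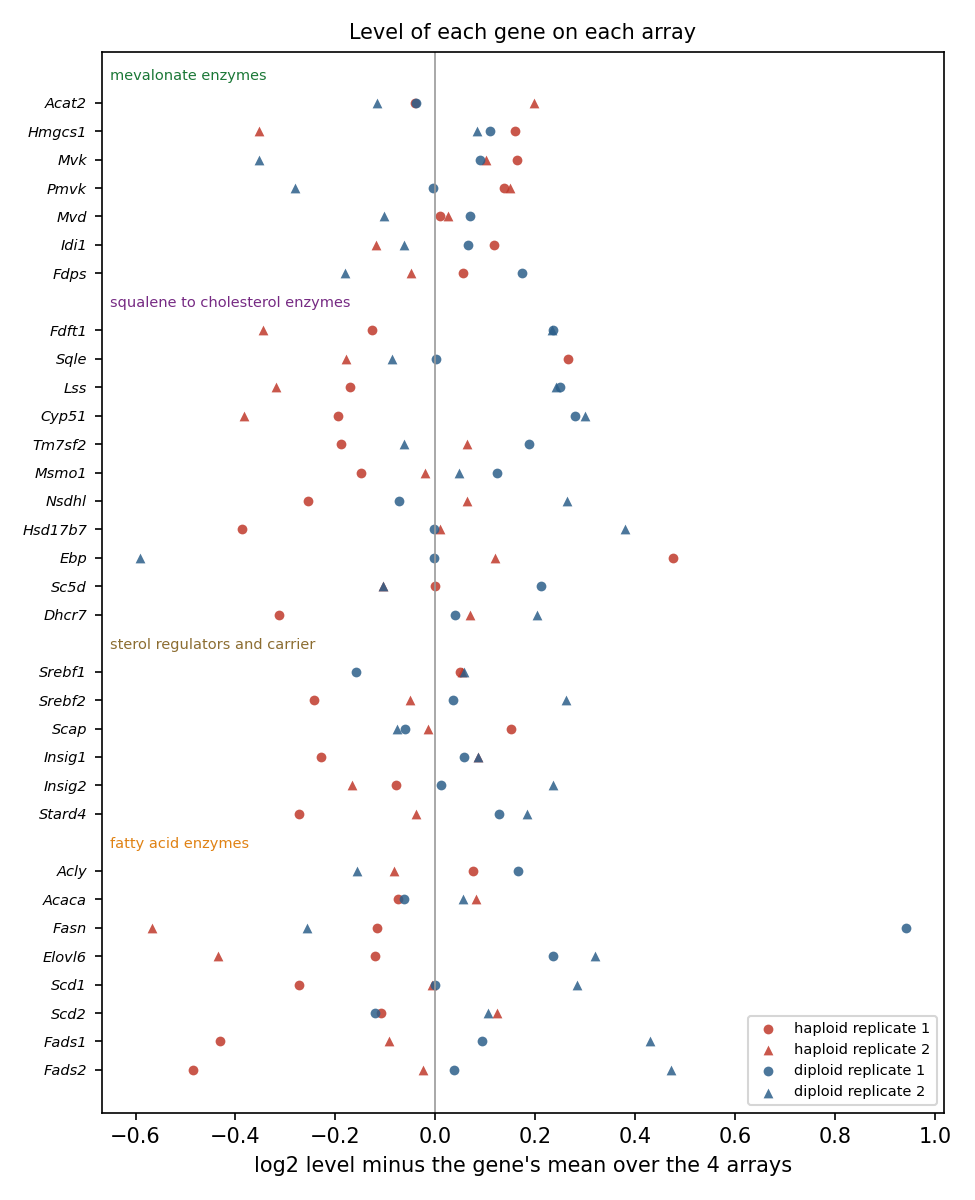
Level of each of the 32 genes on each array (log2 processed signal relative to the array's 75th percentile), minus the gene's mean over the 4 arrays. Red marks haploid and blue diploid arrays, circles replicate 1 and triangles replicate 2. The groups separate with haploid lower for Cyp51, Lss, Fdft1, Elovl6 and Fads1 among others, and with haploid higher for Ebp, Mvk, Pmvk and Scap. Fasn on diploid replicate 1 stands far to the right of its other 3 values.

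Levels are log2 of the processed signal relative to each array's own 75th percentile, so they compare a gene's share of the signal between arrays and not RNA per cell. In such bulk samples fewer cells of a type and less RNA per cell cannot be told apart. Differences are haploid minus diploid with their standard error (SE) from limma and n = 2 arrays per group. The SE of the members ran from 0.17 to 0.40, and the half-width of the unadjusted 95% interval from 0.41 to 0.96 with a median of 0.45, or 1.37-fold. For 27 of the 32 genes the interval lay within 2-fold either way. The exceptions were Ebp, Fasn, Elovl6, Fads1 and Fads2.

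Of the 7 mevalonate enzymes 2 lay below 0, with a median difference of 0.03 and none called. That median was 0.18 without diploid replicate 1, -0.052 without diploid replicate 2 and 0.35 with normexp background correction on all spots, and the count below 0 ran from 0 to 4 of 7 over the settings tried. Hmgcs1, the synthase that makes HMG-CoA, had levels of 3.47 and 2.96 on the haploid arrays and 3.42 and 3.40 on the diploid arrays. The haploid arrays differed from each other by more than the group means did, and the difference was -0.19 ± 0.22 (adjusted p = 0.741). Without haploid replicate 2 it was 0.06.

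Downstream of it, the kinases Mvk and Pmvk, which phosphorylate mevalonate in turn, were the 2 members of the group whose haploid values both lay above the diploid ones. That is 28.6% of the group, near the 26.0% of all features. Mvk had 3.52 and 3.46 in haploid cells against 3.45 and 3.01 in diploid cells (0.26 ± 0.21, adjusted p = 0.624). Pmvk had 3.83 and 3.84 against 3.68 and 3.41 (0.29 ± 0.18, adjusted p = 0.561), with its second probe at 0.23 and a difference of 0.15 without diploid replicate 2. For Mvk the second probe gave 0.05, and with diploid replicate 2 left out the difference of the brighter probe was 0.04.

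The rest of the group lay close to 0. Acat2, the cytosolic thiolase that starts the pathway, differed by 0.16 ± 0.18, and the decarboxylase gene Mvd by 0.03 ± 0.17. Idi1, the isomerase, had levels of 2.32 and 2.08 in haploid and 2.27 and 2.14 in diploid cells, giving a difference of -0.0014 ± 0.18. Fdps, which makes farnesyl diphosphate, differed by 0.01 ± 0.19 (haploid 4.82 and 4.72, diploid 4.94 and 4.59). The 95% intervals of Idi1 and Fdps ran from -0.44 to 0.44 and from -0.46 to 0.48, so a difference of up to about that size in either direction remained possible at 2 arrays per group.

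Of the 11 enzymes from squalene synthesis to cholesterol, 9 (81.8%) lay below 0 in haploid cells, with a median of -0.19. Below the median of features of like brightness lay 10, Sqle only at -0.0013 from it. The median was -0.35 without haploid replicate 2, -0.33 without diploid replicate 1 and -0.14 without haploid replicate 1. Haploid values lay wholly below diploid values for 4 of them (36.4%), Fdft1, Lss, Cyp51 and Msmo1, beside 20.9% of all features. They lay wholly above for 1 (9.1%), Ebp, beside 26.0% of all features. No member of the group was called.

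Cyp51, the lanosterol demethylase, had levels of -0.52 and -0.71 on the haploid arrays and -0.05 and -0.03 on the diploid arrays. Its difference of -0.58 ± 0.17 (1.49-fold, 95% interval -0.99 to -0.16, adjusted p = 0.292) had the smallest p of the 32 genes. It ran from -0.67 to -0.48 with 1 array left out. The gap between the groups was larger than the gap within either, 0.19 for the haploid and 0.02 for the diploid arrays in size.

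Lss, which closes squalene epoxide into lanosterol just before Cyp51 acts, stood at -1.73 and -1.87 in haploid cells and at -1.31 and -1.31 in diploid cells. The difference was -0.49 ± 0.17 (adjusted p = 0.347, -0.56 to -0.42 with 1 array left out). Fdft1, the squalene synthase that commits farnesyl diphosphate to sterols, had 1.60 and 1.39 against 1.97 and 1.96 (-0.47 ± 0.17, adjusted p = 0.384, -0.58 to -0.36 with 1 array left out). In these 3 genes both diploid arrays gave nearly the same level and both haploid arrays lay under it.

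Sqle, the epoxidase that works between Fdft1 and Lss, had 3.95 and 3.51 in haploid and 3.69 and 3.60 in diploid cells, a difference of 0.09 ± 0.21 (adjusted p = 0.885), and the 2 haploid arrays lay on either side of the diploid ones. Without haploid replicate 1 it turned to -0.14.

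Among the enzymes after lanosterol, Msmo1, a methyl oxidase, had 3.47 and 3.60 against 3.74 and 3.67 (-0.17 ± 0.17). Hsd17b7, the ketoreductase of the same demethylation steps, had -3.65 and -3.26 against -3.27 and -2.89, a difference of -0.38 ± 0.23 with the groups overlapping slightly and the second probe at -0.39. The difference of Hsd17b7 was -0.18 without haploid replicate 1, -0.19 without diploid replicate 2 and -0.0033 with normexp after removal of spots with high local background. Nsdhl, which acts beside them, differed by -0.19 ± 0.21 by its brighter probe and by 0.42 by its other probe, the one case among the 10 members with over 1 probe past the filter in which probes of a gene differed in sign. With 1 array left out the brighter Nsdhl probe ran from -0.36 to -0.023.

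Of the reductases and the desaturase of the route none was called. Dhcr7, which makes cholesterol in its last step, differed by -0.24 ± 0.20, Tm7sf2, a sterol C14 reductase, by -0.13 ± 0.19 (second probe -0.28), and Sc5d, the C5 desaturase, by -0.11 ± 0.19. Dhcr7 was -0.052 without haploid replicate 1 and -0.44 without haploid replicate 2. Adjusted p for these 3 genes ran from 0.644 to 0.838.

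Ebp, the sterol isomerase, had the largest positive difference of the 32 genes. Its levels were 6.11 and 5.75 in haploid and 5.63 and 5.04 in diploid cells (0.59 ± 0.25, adjusted p = 0.438). The diploid arrays differed from each other by 0.59 in size, as much as the groups did, and the difference was 0.30 with diploid replicate 2 left out and 0.89 with diploid replicate 1 left out. It lies in the brightest of 10 classes of features, whose median difference was 0.22, and with quantile normalization it was 0.42.

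**Figure D2:**
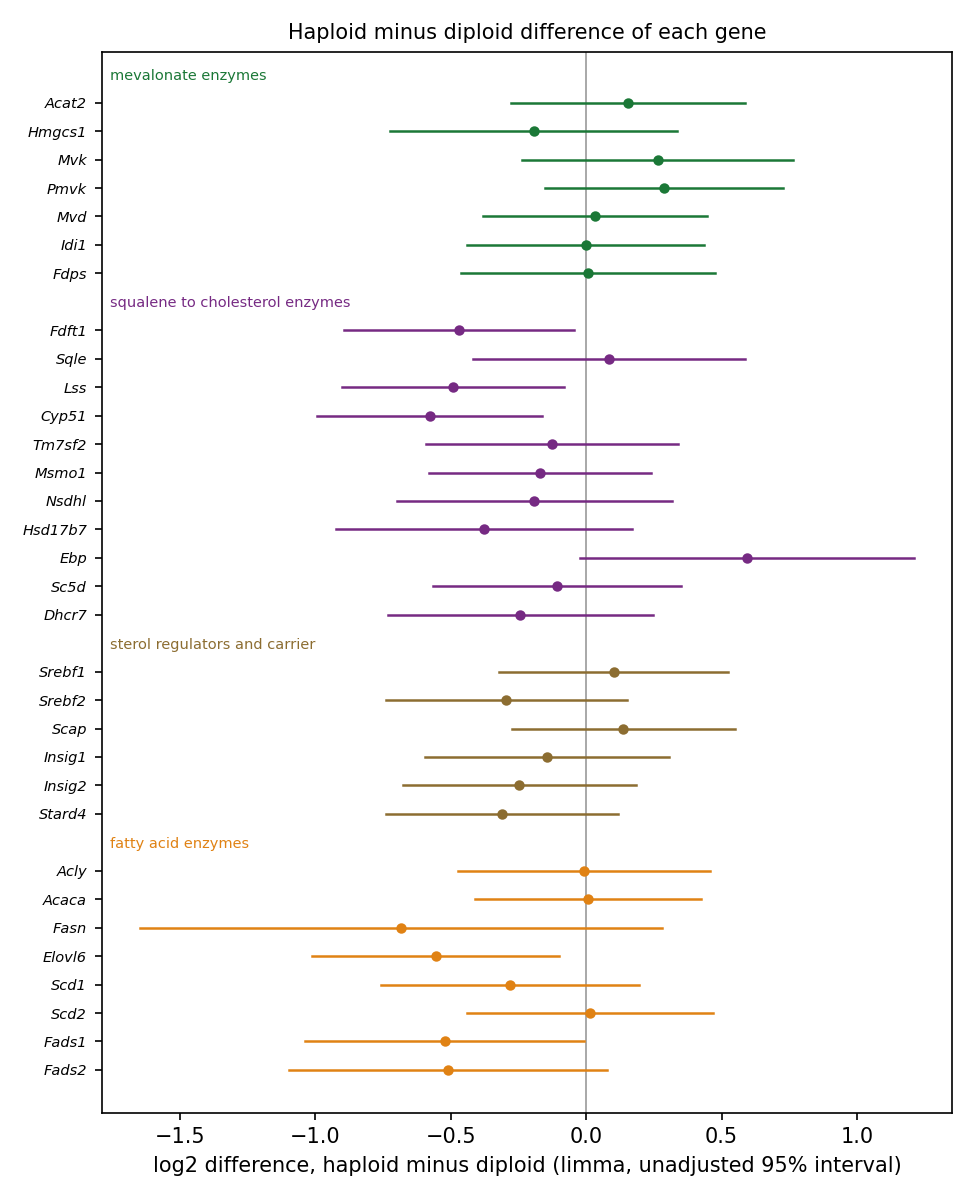
Log2 difference, haploid minus diploid, of each gene (point) with its unadjusted 95% interval from limma (line), n = 2 arrays per group, colours by role. Intervals of 27 genes cross 0, and the 5 that do not (Cyp51, Lss, Fdft1, Elovl6 and Fads1) lie below it.

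The promoters of 3 sterol enzymes are shown because SREBPs bind such genes through sterol regulatory elements, commonly beside a CCAAT box bound by NF-Y. They are those of Hmgcs1 (chr13:119690101-119690400, plus strand), the one member whose window held the letters TCACNCCAC on either strand, and of Cyp51 (chr5:4104648-4104947, minus strand) and Lss (chr10:76531355-76531654, plus strand), the sterol enzymes with the smallest p among those with a window. Each runs from 250 bases before to 50 bases after a RefSeq gene start (GRCm38.p6), 5′ to 3′ on the gene's strand. Capitals mark matches to TCACNCCAC or to CCAAT on either strand.
Hmgcs1: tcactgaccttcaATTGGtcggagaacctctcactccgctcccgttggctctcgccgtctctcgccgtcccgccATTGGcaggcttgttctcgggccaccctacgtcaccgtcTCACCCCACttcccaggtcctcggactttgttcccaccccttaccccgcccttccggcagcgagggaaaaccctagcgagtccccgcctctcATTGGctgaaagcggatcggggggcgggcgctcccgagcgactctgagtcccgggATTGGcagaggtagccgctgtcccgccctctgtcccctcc
Cyp51: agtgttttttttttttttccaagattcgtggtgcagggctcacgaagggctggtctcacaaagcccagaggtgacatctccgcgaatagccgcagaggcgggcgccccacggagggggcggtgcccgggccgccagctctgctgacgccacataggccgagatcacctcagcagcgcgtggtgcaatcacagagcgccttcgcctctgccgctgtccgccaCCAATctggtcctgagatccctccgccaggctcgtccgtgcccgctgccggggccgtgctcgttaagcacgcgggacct
Lss: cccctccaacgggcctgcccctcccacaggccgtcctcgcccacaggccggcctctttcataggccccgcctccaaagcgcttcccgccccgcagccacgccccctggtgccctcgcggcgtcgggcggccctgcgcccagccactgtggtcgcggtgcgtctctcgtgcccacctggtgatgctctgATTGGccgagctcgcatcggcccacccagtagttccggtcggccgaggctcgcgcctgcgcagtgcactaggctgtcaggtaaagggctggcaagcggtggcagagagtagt

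In Hmgcs1 the 1 TCACNCCAC match, TCACCCCAC, began at position -137 from the start and stood among 4 CCAAT matches. Cyp51 and Lss had 1 CCAAT match each, beginning at -29 and -62. RefSeq windows were at hand for 25 of the 32 genes. Of these, 20 (80.0%) had a CCAAT match in a window, beside 41.1% of all 27025 genes with a window, and 1 (4.0%) had a TCACNCCAC match, beside 1.44% of all. All 9 enzymes of the later sterol route with a window had a CCAAT match, as did 5 of 6 mevalonate enzymes, 4 of 5 genes of sterol control and 2 of 5 fatty acid enzymes. Some genes had more than 1 window, which raises the share of genes with a match. By window, 21 of 33 (63.6%) had a CCAAT match, beside 37.4% of all 32851, and for sterol control 5 of 10. A match is a description of letters and not of binding, and the CCAAT search was added after the data were seen. Only exact matches were counted, and other forms of a sterol regulatory element were not searched for. A window without TCACNCCAC is therefore not shown to lack such an element. Whether these letters bear on the differences between haploid and diploid cells was not tested.

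In the genes of sterol control and transport 4 of 6 lay below 0, with a median of -0.20, and none was called. Srebf2, which encodes the SREBP of sterol genes, had -0.33 and -0.14 in haploid and -0.05 and 0.17 in diploid cells. Its difference was -0.30 ± 0.18 (adjusted p = 0.556), with its second probe at -0.47, and the haploid values lay below the diploid ones by less than the arrays of 1 group lay apart. With 1 array left out it ran from -0.41 to -0.18. Srebf1, encoding the SREBP of fatty acid genes, differed by 0.10 ± 0.17 with overlapping groups (-3.46 and -3.46 against -3.67 and -3.45).

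The escort protein gene Scap had 3.10 and 2.94 in haploid and 2.89 and 2.87 in diploid cells (0.14 ± 0.17, adjusted p = 0.763). Insig1, itself a SREBP target, differed by -0.14 ± 0.19. Its values of -0.99 and -0.68 in haploid cells and -0.71 and -0.68 in diploid cells overlapped, and without haploid replicate 1 the difference was 0.01.

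Insig2, a second retention protein gene less tied to SREBP activity, had -0.11 and -0.19 against -0.02 and 0.21, with both haploid arrays below both diploid arrays (-0.25 ± 0.18, second probe -0.20). Stard4, which encodes a soluble sterol carrier, had -0.53 and -0.29 against -0.13 and -0.07 (-0.31 ± 0.18, adjusted p = 0.527, second probe -0.44). Of the 6 genes it had the most negative difference, and the haploid arrays lay 0.23 apart. With 1 array left out Stard4 ran from -0.43 to -0.19 and Insig2 from -0.36 to -0.13.

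The 8 fatty acid enzymes had a median of -0.39, with 6 of 8 below 0. All 8 lay below the median of features of like brightness, as 8980 of all 17963 features did, but Acaca and Scd2 only at -0.03 and -0.07 from it. The median of -0.39 was the most negative of the 4 roles with all arrays in the fit. Without diploid replicate 1 the later sterol enzymes had the lower one, -0.33 beside -0.26. The 2 genes above 0 were Scd2 and Acaca, both at 0.01. Haploid values lay wholly below diploid values for 4, Elovl6, Scd1, Fads1 and Fads2, and wholly above for none. No member was called.

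The first 2 steps did not differ beyond their error. Acly, which releases acetyl-CoA from citrate, had 5.20 and 5.04 in haploid and 5.29 and 4.97 in diploid cells (-0.01 ± 0.19, 95% interval -0.47 to 0.46). Acaca, the carboxylase that makes malonyl-CoA, had 2.12 and 2.28 against 2.13 and 2.25 (0.01 ± 0.17).

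Fasn, the synthase that builds palmitate, had the largest difference in size of the 32 genes and the largest error. Its levels were -1.87 and -2.32 in haploid cells and -0.81 and -2.01 in diploid cells, so diploid replicate 1 stood above the other 3 arrays and the groups overlapped. The difference of -0.68 ± 0.40 (adjusted p = 0.531) was -0.08 when diploid replicate 1 was left out and -1.28 when diploid replicate 2 was.

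Elovl6, which elongates palmitate to stearate, had 2.19 and 1.87 in haploid and 2.54 and 2.63 in diploid cells. The difference was -0.56 ± 0.19 (1.47-fold, 95% interval -1.01 to -0.10, adjusted p = 0.339) and ran from -0.71 to -0.40 with 1 array left out. The haploid arrays were 0.31 apart and the diploid arrays 0.09, both less than the gap between the nearest haploid and diploid values.

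None of the desaturases was called. Scd1, a delta-9 desaturase, had -1.17 and -0.90 against -0.89 and -0.61 (-0.28 ± 0.20), with the nearest haploid and diploid values almost touching. With 1 array left out Scd1 ran from -0.42 to -0.14. Its paralog Scd2 had 3.54 and 3.77 against 3.53 and 3.75 (0.01 ± 0.19, 95% interval -0.44 to 0.47). Both genes were read by 1 probe each.

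The 2 desaturases of polyunsaturated fatty acids, which lie next to each other in the genome, gave like differences at unlike levels. Fads1, the delta-5 enzyme, had -0.64 and -0.30 in haploid and -0.12 and 0.22 in diploid cells (-0.52 ± 0.21, 95% interval -1.04 to -0.01, adjusted p = 0.421). Fads2, the delta-6 enzyme, had -3.37 and -2.91 against -2.84 and -2.41 (-0.51 ± 0.24, adjusted p = 0.475). In both genes haploid replicate 1 was the lowest and diploid replicate 2 the highest of the 4 arrays, and replicates of a group lay 0.34 apart for Fads1 and 0.43 to 0.46 apart for Fads2. With 1 array left out Fads1 ran from -0.69 to -0.35 and Fads2 from -0.74 to -0.28.

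Set against each other, the 18 sterol enzymes had a median difference of -0.12, with 11 of 18 below 0, and the 8 fatty acid enzymes -0.39, a gap of 0.28 that was described and not tested. The median of the sterol enzymes turned sign without diploid replicate 1, to 0.026, and came near 0 without haploid replicate 2, at -0.015. Their count below 0 ran from 7 to 13 of 18 over the settings tried. The gap ran from 0.06 without diploid replicate 2 to 0.39 without haploid replicate 2. The median of the fatty acid enzymes was -0.26 with diploid replicate 1 left out, -0.23 with diploid replicate 2 left out and -0.21 with haploid replicate 1 left out. Across the arrays the median of the fatty acid enzymes, each gene taken relative to its own mean, was -0.12 and -0.05 on the haploid and 0.07 and 0.19 on the diploid arrays. For the later sterol enzymes it was -0.17 and -0.02 against 0.12 and 0.20, and for the mevalonate enzymes 0.12 and 0.03 against 0.07 and -0.12. In the fatty acid and the later sterol enzymes both haploid arrays lay below both diploid arrays, and the nearest haploid and diploid arrays were no farther apart than the replicates of one group.

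**Figure D3:**
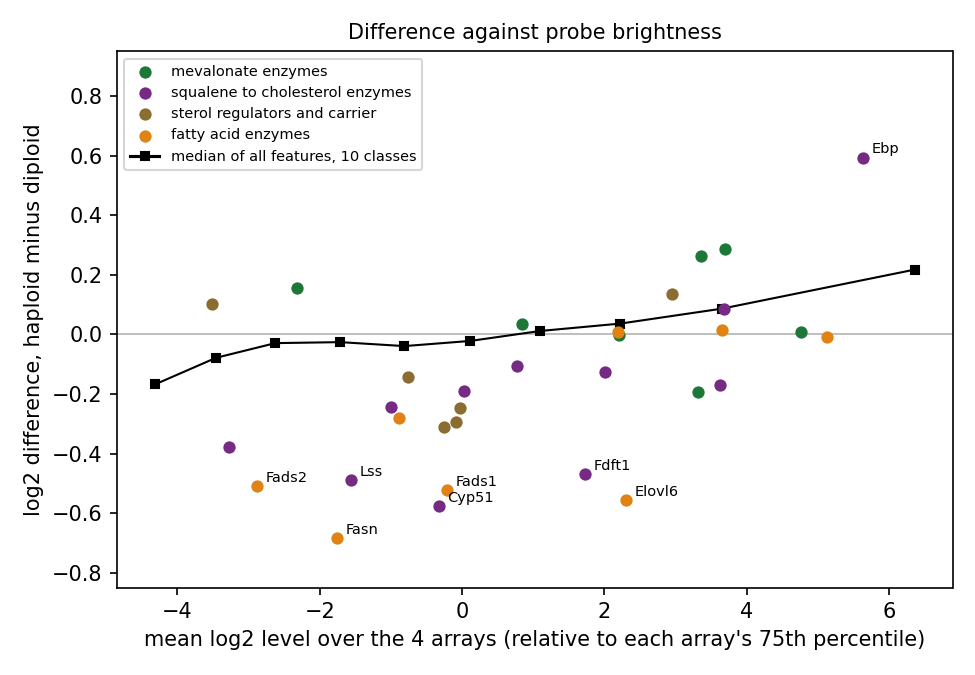
Log2 difference, haploid minus diploid, of the 32 genes (coloured points, by role) against their mean log2 level over the 4 arrays. Black squares give the median difference of all 17963 features in 10 classes of brightness, which rises from -0.17 to 0.22, and genes that differ by more than 0.4 in either direction are named.

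Probe brightness went with the difference over the whole array. The class median rose from -0.17 among the dimmest to 0.22 among the brightest features, and its part in the results of the members was not tested. Relative to the median of their class, the later sterol enzymes had a median of -0.20, the fatty acid enzymes -0.36, the genes of sterol control -0.16 and the mevalonate enzymes 0.02. In all, 25 of the 32 genes lay below their class median, beside 8980 of all 17963 features.

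Genes of neighbouring lipid pathways were read from 5 further lists, and none of their members was called. For isoprenoid branches 4 of 12 lay below 0 (median 0.07), for sterol uptake, transport and export 9 of 18 (-0.06), for fatty acid supply and elongation 6 of 21 (0.08), for glycerolipid synthesis 7 of 15 (0.06) and for fatty acid oxidation 6 of 16 (0.07). In these lists some single genes differed by more than any of the 32. Acss2, which makes acetyl-CoA from acetate and so feeds both pathways, had -0.31 and 0.18 in haploid and -0.73 and -0.86 in diploid cells (0.73 ± 0.22, adjusted p = 0.293). Fads3, a relative of Fads1 and Fads2, differed by 1.04 ± 0.31 in the other direction from them, with values of -2.39 and -2.49 against -3.02 and -3.94 (adjusted p = 0.293).

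Cds2, which makes CDP-diacylglycerol for phospholipids, had 2.38 and 2.63 against 1.55 and 1.503 (0.98 ± 0.18, adjusted p = 0.138). Agpat3, an acyltransferase of the same route, differed by 0.59 ± 0.19. Among genes of sterol handling, Nr1h3, the LXR-alpha sterol sensor, differed by 0.67 ± 0.18 (adjusted p = 0.242) and the lipoprotein receptor gene Vldlr by -0.69 ± 0.25 (adjusted p = 0.380). In the isoprenoid branches the farnesyltransferase gene Fntb differed by 0.32 ± 0.17 and Pdss2, which makes the coenzyme Q tail, by -0.35 ± 0.17. Of the oxidation genes, Acaa2, a thiolase, differed by 0.90 ± 0.20 and Acadvl, a long-chain dehydrogenase, by 0.47 ± 0.17.

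No marker of another cell type was called (smallest adjusted p 0.0781, Krt18, limma), but summed levels of such markers differed between the groups. Of 12 fibroblast markers, read because ESC cultures can hold feeder fibroblasts, 11 passed the filter, all but Pdgfrb, and 8 of the 11 had both haploid arrays above both diploid arrays (median difference 0.61), beside 26.0% of all features. Col3a1, Lum and Dcn went the other way, by -0.39, -0.29 and -0.38. The summed level of the 11 markers was 23.7 to 28.1 on the haploid and 15.7 to 18.7 on the diploid arrays, in units of each array's 75th percentile. It was mostly that of Vim, which differed by 0.45. The summed level of the ESC markers was higher on the haploid arrays too, at 255.9 to 260.2 against 219.4 to 249.4. Of 8 trophectoderm markers 5 passed, without Cdx2, Elf5 and Hand1, and their summed level was 14.6 to 17.9 on the haploid and 13.0 to 13.5 on the diploid arrays. Both haploid arrays lay above both diploid arrays for 3 of the 5, beside 26.0% of all features, and the median difference was 1.02. These were the keratin genes Krt18 (1.23) and Krt8 (1.15) and Gata3 (1.02). Tfap2c, with Krt18 the main part of the sum, differed by -0.14 and Eomes by -0.43. Of 7 primitive endoderm markers 4 passed, without Sox17, Pdgfra and Dab2, and their summed level of 121.7 to 123.5 against 80.0 to 95.4 was mostly that of Sparc. In the single genes of that list 2 lay above and 2 below 0 (median -0.23), with Gata4 at -0.77 and Gata6 at -0.96. Gata4 and Gata6 were well above background on only 3 arrays and passed the filter through the diploid arrays, where they were higher. On haploid replicate 1 they read -5.14 and -5.80, under that array's lowest level well above background, -4.66. Their differences and the list median thus rest partly on background-level values. The part of such cells in the levels of the lipid genes was not tested.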

How the data were processed

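Per the labels' protocols, RNA was purified and 0.2 ug of it labelled with Cy3. The deposited scanner output was written by Agilent Feature Extraction 11.0.1.1, per the file headers, and its processed signal is a linear intensity. The value table the authors deposited also holds linear intensity, with array medians of 28.3 to 28.4. How it was normalized is not stated in the labels or headers, and it served as an alternative. Control spots and 121 to 168 outlier spots per array were left out, spots of a probe averaged, and log2 of the signal taken minus each array's 75th percentile. No spot was saturated, and the number of arrays limits the precision.

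Of 39409 probes, 26043 matched a RefSeq symbol (GRCm38.p6 table). A feature was kept if 1 group or more had it well above background on both of its arrays. Haploid and diploid arrays were compared over all 17963 features with limma 3.58.1 (R 4.3.3, two-sided, Benjamini-Hochberg, threshold 0.05). The fit was tested on simulated data, with differences larger than that of any member. All 4 arrays share 1 slide. The p-values reflect only how far these 4 samples spread. The replicate numbers were not taken as pairs, as the labels state no pairing. Across all features, deviations of haploid and diploid replicate 1 correlated at 0.048, but most members shifted in the same direction in both groups. From replicate 1 to replicate 2, Fads2 changed by 0.46 in haploid and 0.43 in diploid cells. Nsdhl changed by 0.32 and 0.34, Hsd17b7 by 0.40 and 0.38, and Fads1 by 0.34 and 0.34. Acat2, Pmvk, Mvd, Cyp51, Tm7sf2, Msmo1, Insig2 and Elovl6 shifted in opposite directions, Tm7sf2 by 0.25 and -0.25. Replicate spreads of the members may thus not be independent between the groups. With the replicate block the SE of Fads2 was 0.17, beside 0.24 without it. All 32 members are named, and from each list of other lipid genes the 2 with the smallest p. Members and lists were chosen with earlier results of these data known. Python 3.11.15, pandas 2.3.3, numpy 2.4.6 and matplotlib 3.10.9 read the files and drew the plots. The alternatives were another background correction, normalization, source, filter, probe rule, variance prior, replicate block and each array left out. Normexp used the spots' median signal.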

Additional observations from a re-analysis of the deposited data

How the results depend on the processing

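No member was called in any of 13 other settings (smallest adjusted p 0.0763), and 17 of the 32 genes kept their direction in all of them, Cyp51, Lss, Fdft1, Elovl6, Fads1, Fads2, Ebp and Fasn among these. Not every setting could turn a direction. The changed filters, the prior and the replicate block left each member's difference as it was. The mean of probes did so for genes with 1 probe past the filter. Where the groups separate, as for the genes named here except Fasn, leaving 1 array out cannot turn the sign. The number of features called over the whole array was less steady: 20 as reported, 0 with normexp on all spots and without a filter, 109 with normexp once spots of high local background were removed, 7 with quantile normalization, 4 with the authors' value table, 82 with features well above background on all 4 arrays, 425 with a trended robust prior, 2 with the replicate block, which changed no call of a member, and 0 to 294 with 1 array left out (0 without either diploid replicate, 226 without haploid replicate 1 and 294 without haploid replicate 2). The causes were not tested.

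Normexp on all spots moved the median of all features from 0.02 to -0.10. With it the median was 0.14 for sterol enzymes and 0.35 for mevalonate enzymes, the gap between sterol and fatty acid enzymes was 0.48, and these genes turned sign: Acat2 (-0.51), Hmgcs1 (0.22), Idi1 (0.35), Tm7sf2 (0.16), Msmo1 (0.28), Sc5d (0.044), Srebf1 (-0.77) and Acly (0.45). Local background was high for 9 spots, all on diploid replicate 2. Without them the fatty acid median was -0.20, the gap 0.13, and Mvd (-0.020), Fdps (-0.019), Acaca (-0.034) and Scd2 (-0.045) turned. Quantile normalization turned Fdps (-0.14), Sqle (-0.024), Acaca (-0.029) and Scd2 (-0.10), the value table the same 4 (-0.13, -0.017, -0.033 and -0.089), and the mean of probes Nsdhl (0.11).

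With 1 array left out, medians ran from -0.17 to 0.026 (sterol enzymes), -0.052 to 0.18 (mevalonate), -0.35 to -0.14 (later sterol), -0.25 to -0.090 (sterol control) and -0.41 to -0.21 (fatty acid), and the gap from 0.065 to 0.39. Genes that turned ran from -0.45 to 0.064 (Hmgcs1), -0.052 to 0.12 (Mvd), -0.12 to 0.12 (Idi1), -0.17 to 0.18 (Fdps), -0.14 to 0.31 (Sqle), -0.25 to 0.00026 (Tm7sf2), -0.27 to 0.052 (Sc5d), -0.0065 to 0.21 (Srebf1), -0.30 to 0.013 (Insig1), -0.17 to 0.15 (Acly), -0.072 to 0.086 (Acaca) and -0.10 to 0.13 (Scd2). The count below 0 ran from 8 to 9 of 11 for the later sterol enzymes and from 6 to 7 of 8 for the fatty acid enzymes with 1 array left out, and from 6 to 10 and from 5 to 8 over all 13 settings. Medians relative to brightness classes were added after the data were seen. The 2 arrays per group limit all intervals.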
